A study of Mus musculus with 8 samples.

Results

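The genes described here run glucose, fructose, galactose and glycogen through the liver: transport and the first phosphorylation, glycolysis, glycogen synthesis and breakdown, and the pentose phosphate pathway. They were chosen from a list of 42 gene symbols, each represented by the array's transcript cluster (its unit for a gene) that carries that symbol alone and, where there were several, has the highest mean over all arrays. Of the 42, 35 had such a cluster, out of 22180 genes named in this way on the array. Gpi1, Pfkfb1, Eno1, Galk1, Galt, G6pdx and Tkt are not analysed here, so the galactose steps, the cytosolic entry of the pentose phosphate pathway and transketolase have no value. The samples were livers of male C57BL/6J mice, 3 wild-type (WT) and 5 with a knockout (KO) of Abhd15, an alpha/beta hydrolase studied mainly in fat cells. All mice ate normal chow, and at 14 weeks of age they were fasted overnight and had food returned for 1 hour before the liver was frozen. The sources used here give neither how the KO allele was made nor whether litters were shared. Each liver's RNA went onto 1 array of the Mouse Gene 2.0 ST type, giving values on a log2 scale, so that a difference of 1 is a doubling.

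A meal turns the liver from releasing glucose to storing it. Glucose enters through the transporter GLUT2, is phosphorylated and then goes to glycogen, to pyruvate by glycolysis, or to the pentose phosphate pathway, which supplies NADPH for fat synthesis. Glycogen synthase and phosphorylase are switched by phosphorylation, and scaffold proteins of the PPP1R3 family bring the phosphatase PP1 to glycogen, where it activates the synthase and inactivates the phosphorylase. Insulin, glucagon and the sugar-responsive factor ChREBP set the transcript levels of many of these proteins.

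Abhd15 itself read 5.46 to 5.81 in the WT livers and 5.04 to 5.21 in the KO livers, which do not overlap, with a log2 difference of -0.52 (SE 0.129, limma adjusted p = 0.795). These values are from the brighter of 2 clusters for Abhd15, and the other is not reported here. Hepatocyte markers fixed for the check, such as Alb and Apob, were bright on all arrays, and the mean of the 10 markers lay between 11.08 and 11.33. KO arrays 1 and 2 stood apart from the rest in an earlier examination of these data, and Igfbp1, whose transcription insulin represses, read 10.26 and 9.56 there against 5.66 to 6.88 in the other KO livers and 4.35 to 5.78 in WT. Genes whose mean difference turned sign without that pair are given with both values.

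Promoter sequences are shown for 4 genes: 2 of the PP1 scaffolds with lower means in KO livers, the 1 gene past an unadjusted threshold, and Ldha, which was high in a single KO liver. Each is the 250 bases before the most upstream transcript start in RefSeq's GRCm38.p6 table, read 5′ to 3′ on the gene's own strand. That table holds no promoter under the symbol Ppp1r3b, the main liver scaffold, so none is shown for it. Capitals mark matches, on either strand, to the E-box CACGTG, a core shared by the binding sites of ChREBP, MYC, HIF and clock factors, and to the cAMP response element TGACGTCA. The forkhead motif GTAAACA was also searched and has no match in these 4 windows, and the motifs do not overlap one another.
Ppp1r3c (chr19:36736605-36736854, minus strand): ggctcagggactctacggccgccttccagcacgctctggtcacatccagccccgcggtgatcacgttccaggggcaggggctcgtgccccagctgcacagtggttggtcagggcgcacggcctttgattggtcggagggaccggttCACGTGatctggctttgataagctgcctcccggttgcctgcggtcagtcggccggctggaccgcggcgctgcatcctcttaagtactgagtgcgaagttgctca
Ppp1r3g (chr13:35967656-35967905, plus strand): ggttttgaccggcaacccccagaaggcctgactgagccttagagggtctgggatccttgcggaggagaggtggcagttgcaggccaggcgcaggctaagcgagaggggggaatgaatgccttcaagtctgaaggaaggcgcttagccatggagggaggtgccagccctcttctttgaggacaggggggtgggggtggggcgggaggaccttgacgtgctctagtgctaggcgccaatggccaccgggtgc
Pfkm (chr15:98092339-98092588, plus strand): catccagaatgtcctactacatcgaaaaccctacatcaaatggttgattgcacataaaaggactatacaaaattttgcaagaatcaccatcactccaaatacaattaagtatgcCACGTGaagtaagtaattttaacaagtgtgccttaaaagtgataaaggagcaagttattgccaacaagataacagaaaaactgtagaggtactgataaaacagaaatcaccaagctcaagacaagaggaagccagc
Ldha (chr7:46845554-46845803, plus strand): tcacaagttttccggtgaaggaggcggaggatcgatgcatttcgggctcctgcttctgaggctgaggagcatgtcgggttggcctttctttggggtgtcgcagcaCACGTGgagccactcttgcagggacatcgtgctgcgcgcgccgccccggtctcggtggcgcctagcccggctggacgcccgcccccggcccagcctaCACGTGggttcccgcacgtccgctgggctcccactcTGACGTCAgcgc
The Ppp1r3c window holds 1 E-box, which begins 104 bases before the start. The Ppp1r3g window has no match to these letters. The Pfkm window, 1 of 4 starts listed for that gene, holds 1 E-box, 136 bases before the start. Ldha, from the more upstream of 2 listed starts, has E-boxes 145 and 48 bases before the start and a cAMP response element 12 bases before it. Of the 33 members with a promoter in the table, 6 had an E-box in at least 1 window (Khk, Ldha, Pfkfb2, Pfkfb3, Pfkm and Ppp1r3c), or 18.2%, where 6.86% of all 27025 genes in the table had one and 6.02% of all windows of this length. The cAMP element was found in Ldha only among the members, and in 1.77% of all genes. The forkhead motif was found in Aldoc only among the members, and in 3.54% of all genes. These are matches of letters, and binding was not measured.

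Transcripts of these pathways lay close together in the livers of both genotypes. Of the 35 genes, 15 had a higher and 20 a lower mean in KO livers. The median log2 difference (KO minus WT) was -0.03, beside -0.0018 over all 23521 clusters with a single symbol. In the limma fit over those clusters none passed an adjusted p of 0.05 (0% of all clusters, smallest adjusted p 0.154), and 1429 had an unadjusted p under 0.05. The adjusted p of the 35 genes lay between 0.819 and 0.996. At an unadjusted p under 0.05 there was 1 gene, Pfkm, lower in KO, or 2.86% of the members against 6.08% of all clusters in either direction and 3.32% lower in KO. In 1 gene, Ppp1r3b, every KO liver lay below every WT liver, again 2.86%, against 4.43% of all clusters without overlap in either direction and 2.44% with KO below WT. Each is a single gene, near the share over all clusters. Without KO arrays 1 and 2 the log2 difference turned sign in 6 of the 35 genes: Slc2a2 (-0.05 to 0.003), Pfkl (0.02 to -0.20), Pfkp (0.02 to -0.31), Tpi1 (-0.01 to 0.01), Ldha (0.08 to -0.24) and H6pd (0.09 to -0.01). In whole tissue, fewer cells of a type and less RNA per cell cannot be told apart.

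How small a difference could be seen varied by gene. The 95% interval of the log2 difference reached 0.25 to either side for the tightest gene, Gapdh, 0.36 for the median gene and 0.76 for the widest, Ppp1r3c. For 22 of the 35 genes the whole interval lay within 1.5-fold in either direction. For the other 13, a difference larger than that is within the interval. The number of arrays limits this precision.

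**Figure D1:**
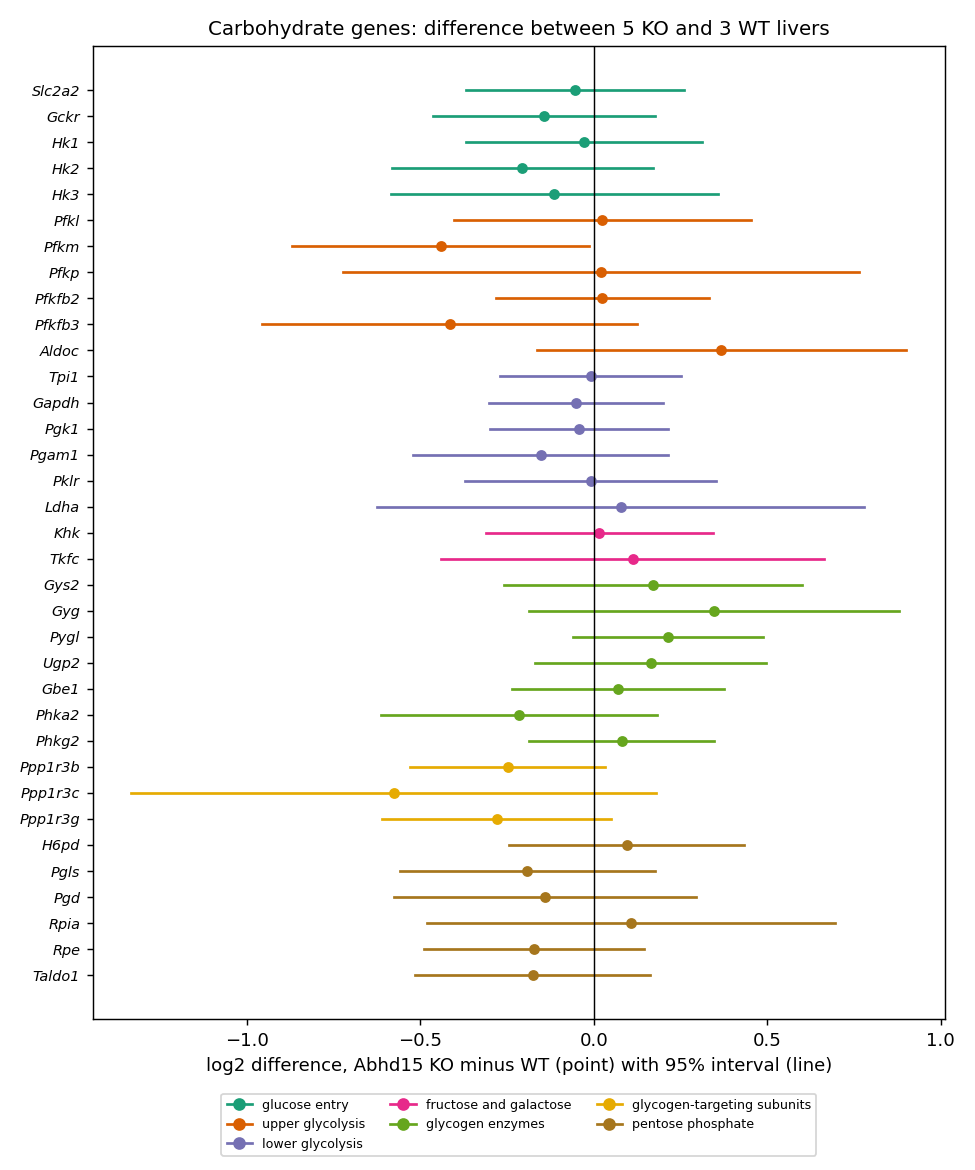
Log2 difference between 5 KO and 3 WT livers for each of the 35 genes (point) with limma's 95% interval (line), coloured by sub-pathway, on a linear axis of log2 units. The interval of Pfkm ends at -0.01, those of the other genes include 0, and the points of the 3 glycogen-targeting subunits all lie to the left of 0.

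The 3 scaffold subunits among the member genes, Ppp1r3b, Ppp1r3c and Ppp1r3g, all had lower means in KO livers. Family members from the other lists had higher means: Ppp1r3a (log2 difference 0.35), Ppp1r3d (0.07), Ppp1r3e (0.05) and Ppp1r3f (0.41). These were dim, with means over the 8 arrays of 2.19, 3.33, 4.33 and 2.28. Without KO arrays 1 and 2 the difference of Ppp1r3d was -0.007. The measured family as a whole therefore went both ways. Ppp1r3b encodes the main liver form, GL. It read 9.13, 9.43 and 9.21 in WT and 8.91, 9.003, 9.12, 8.95 and 9.06 in KO. The groups did not overlap, although WT array 1 and KO array 3 were almost level. The log2 difference was -0.25 (SE 0.127), or 1.19-fold, with a limma adjusted p of 0.841. A two-sided exact permutation test gave p = 0.0179, the smallest that the 56 splits of 8 arrays allow. Groups without overlap are already the most extreme split in their direction, so this p adds little to the lack of overlap. It was not adjusted for the number of genes examined. When each array was centred on its own median, the groups overlapped. A second, dimmer cluster for Ppp1r3b had a log2 difference of -0.44 (SE 0.227).

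Ppp1r3c encodes PTG, a scaffold that also binds glycogen synthase and phosphorylase. It had the widest spread of all 35 genes, with an SD of 0.619 over the 8 arrays. Its values were 7.82, 8.30 and 8.34 in WT and 6.56, 7.15, 8.02, 8.12 and 8.02 in KO. KO livers 1 and 2 lay below every WT liver, and the other 3 KO livers lay inside the WT range. The log2 difference of -0.58 (SE 0.341, limma adjusted p = 0.858) was -0.10 without KO arrays 1 and 2 and -0.32 without KO array 1 alone. These are the same 2 livers in which Igfbp1 was high, and the part of whatever sets them apart was not tested.

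Ppp1r3g, a further glycogen scaffold of the family, was dim, with a mean of 3.23 in WT and 2.95 in KO beside array medians of 2.99 to 3.05. Its values were 3.39, 3.19 and 3.11 in WT and 2.66, 3.13, 3.15, 2.90 and 2.91 in KO, so that 3 of 5 KO livers lay below all WT livers. The log2 difference was -0.28 (SE 0.149, limma adjusted p = 0.843). A signal above background is not shown at this level. The mean over the 3 subunits was 6.78, 6.97 and 6.89 in the WT livers and 6.04, 6.43, 6.76, 6.66 and 6.67 in the KO livers. The lowest of these belonged to KO livers 1 and 2, and the closest approach between the groups was KO liver 3 against WT liver 1. How often other sets of 3 genes separate in this way was not counted. This mean includes the dim Ppp1r3g and leaves out the family members with higher means in KO.

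**Figure D2:**
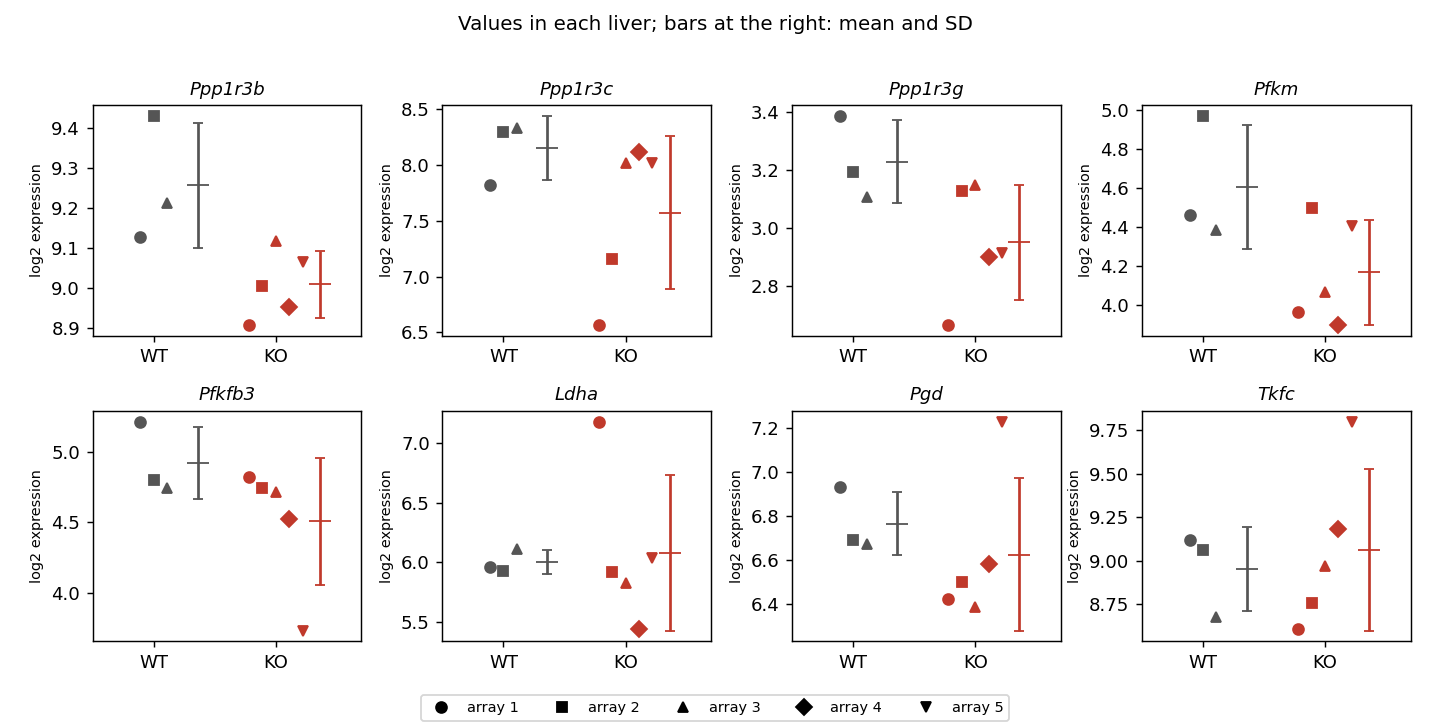
Log2 expression of 8 genes in each liver, with a symbol for each array number and the mean and SD of 3 WT (grey) and 5 KO (red) arrays at the right of each group; axes differ between panels and do not start at 0. Ppp1r3b shows no overlap between the groups, Ppp1r3c is low in KO livers 1 and 2, Ldha is high in KO liver 1, and Pgd and Tkfc are high in KO liver 5.

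The enzymes that build and break down glycogen had means that pointed the other way. Of 7 genes, 6 were higher and 1 lower in KO, with a median log2 difference of 0.16, and none had an unadjusted p under 0.05. Without WT array 3 the median was 0.05. Glycogen enzymes from the other lists went both ways. Gys1 (-0.18), Pygm (-0.26), Phkb (-0.11), Phkg1 (-0.54) and Gaa (-0.08) had lower means in KO. Without KO arrays 1 and 2 the difference of Gys1 was 0.14. Pygb (0.16) and Phka1 (0.01) had higher means in KO. Pygl, the liver glycogen phosphorylase that releases glucose units, read 8.46, 8.53 and 8.37 in WT and 8.66, 8.73, 8.48, 8.75 and 8.71 in KO. Of the 5 KO livers, 4 lay above all WT livers, and KO liver 3 lay among them. Its log2 difference was 0.21 (SE 0.124, limma adjusted p = 0.858), with an exact permutation p of 0.0536. Gys2, the liver glycogen synthase, read 9.83, 9.46 and 9.26 in WT and 9.71, 9.53, 10.15, 9.38 and 9.66 in KO. The groups overlapped widely (log2 difference 0.17, SE 0.194), and only KO liver 3 exceeded the WT range.

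Ugp2, which makes the UDP-glucose that the synthase consumes, read 9.01, 9.42 and 9.24 in WT and 9.48, 9.53, 9.51, 9.28 and 9.13 in KO. The first 3 KO livers lay above the WT range and the other 2 within it, a log2 difference of 0.16 (SE 0.151). Gyg, the glycogenin on which a new glycogen chain is started, varied most among these enzymes, from 4.36 to 4.97 in WT and from 4.47 to 5.44 in KO. Its log2 difference was 0.35 (SE 0.241, limma adjusted p = 0.874), and 3 of 5 KO livers exceeded the WT range. The branching enzyme Gbe1 and the phosphorylase kinase subunit Phkg2 had log2 differences of 0.07 (SE 0.138) and 0.08 (SE 0.12). Phka2, the liver regulatory subunit of phosphorylase kinase, was the 1 gene with a lower mean (-0.22, SE 0.18), with 5.98 and 5.96 in KO livers 4 and 5 against 6.37 to 6.61 in the other 6 livers. That the scaffold and enzyme genes differ in their response was not tested.

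All 5 genes of glucose entry had slightly lower means in KO in the values as deposited, but the sign turned for Hk1 in 5 of the alternatives tried, renewed quantile normalization among them, for Slc2a2 without KO arrays 1 and 2 or without WT array 2, and for Hk3 in 1 other. Their median log2 difference was -0.11, and none had an unadjusted p under 0.05. Slc2a2, which encodes GLUT2, read 9.44, 9.80 and 9.65 in WT and 9.54, 9.44, 9.83, 9.57 and 9.50 in KO. The ranges coincided almost completely, and the 95% interval of the log2 difference ran from -0.37 to 0.26. Gckr, a regulatory protein of hepatocytes, read 8.47, 8.57 and 8.48 in WT and 8.21, 8.63, 8.21, 8.53 and 8.24 in KO. KO livers 1, 3 and 5 lay below the WT range, and the log2 difference was -0.14 (SE 0.144).

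The hexokinase genes Hk1, Hk2 and Hk3, which are low in hepatocytes, were dim. Hk2, the form found in muscle and fat, read 4.06, 3.92 and 4.30 in WT and 4.13, 4.18, 3.71, 3.62 and 3.81 in KO. KO livers 3, 4 and 5 lay below the WT range and KO livers 1 and 2 within it, so the log2 difference was -0.21 (SE 0.17) with all arrays and -0.38 without KO arrays 1 and 2. In that smaller set Hk2 had an unadjusted limma p of 0.0409. Hk3, found in myeloid cells, spread most in this group, from 3.13 to 3.56 in WT and from 3.02 to 3.91 in KO. Macrophage markers had a mean of 5.81 to 6.25 in WT and 5.58 to 6.78 in KO, neutrophil markers one of 2.03 to 2.25 and 2.00 to 2.40, and their part in Hk3 was not tested.

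In upper glycolysis the median log2 difference of 6 genes was 0.02, while the mean was -0.07, and without KO arrays 1 and 2 the median was -0.25. Pfkm, the muscle-type subunit of phosphofructokinase, read 4.46, 4.97 and 4.39 in WT and 3.96, 4.50, 4.07, 3.90 and 4.41 in KO. KO livers 1, 3 and 4 lay below the WT range, and KO livers 2 and 5 within it. The log2 difference was -0.44 (SE 0.194), with an unadjusted limma p of 0.0446, an adjusted p of 0.819 and an exact permutation p of 0.107. The unadjusted p was above 0.05 without WT array 1 (0.0503), WT array 2 (0.227, log2 difference -0.26), KO array 1 (0.0868), KO array 3 (0.0789) or KO array 4 (0.0908). Skeletal muscle markers were dim, with a mean of the 8 markers of 3.38 to 3.48 in WT and 3.29 to 3.41 in KO, 3 of them higher and 5 lower. Among them Ckm, muscle creatine kinase, had a log2 difference of -0.54 (SE 0.178) and Actn3, a fast-fibre actinin, one of 0.33 (SE 0.145), both with an unadjusted limma p under 0.05 and of opposite sign. Their part in the value of Pfkm was not tested.

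Pfkl, the liver subunit, read 5.80, 6.06 and 5.74 in WT and 6.12, 6.34, 5.78, 5.67 and 5.55 in KO. KO livers 1 and 2 were the highest of all 8 and KO livers 4 and 5 the lowest. Its log2 difference was 0.02 (SE 0.193), and -0.20 without KO arrays 1 and 2. Pfkp, the platelet-type subunit, spread over 1.58 log2 units, from 3.65 to 4.66 in WT and from 3.30 to 4.88 in KO. Pfkfb3 makes the bisphosphate that activates phosphofructokinase, and it read 5.22, 4.80 and 4.75 in WT and 4.82, 4.74, 4.71, 4.52 and 3.73 in KO. KO liver 5 was far below the rest, and the log2 difference of -0.42 (SE 0.244, limma adjusted p = 0.858) was -0.22 without that array. Pfkfb2, a related enzyme, had a log2 difference of 0.03 (SE 0.139). Aldoc, the brain-type aldolase, had the most positive difference of all 35 genes, 0.37 (SE 0.241, limma adjusted p = 0.873), with 5.55 and 5.25 in KO livers 1 and 5 against 4.27 to 4.81 in WT.

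The 6 genes of lower glycolysis had a median SD over the 8 arrays of 0.136, against 0.222 over all 35 genes. Gapdh read 11.66 in each WT liver and 11.60, 11.62, 11.57, 11.57 and 11.70 in the KO livers, and its SD over all 8 arrays, 0.0493, was the smallest of all 35 genes. The intervals of Gapdh, Tpi1 and Pgk1, which encode the triose and phosphoglycerate steps, ran from -0.30 to 0.20, from -0.27 to 0.25 and from -0.30 to 0.21. Pklr, the liver pyruvate kinase and a ChREBP target, read 8.49, 8.56 and 8.03 in WT and 8.34, 8.37, 8.28, 8.15 and 8.62 in KO. The KO values lay almost within the WT range, with a log2 difference of -0.01 (SE 0.164, of the other sign after renewed quantile normalization) and an interval from -0.37 to 0.35. Pgam1 had a log2 difference of -0.15 (SE 0.166), and its second, dimmer cluster one of 0.31 (SE 0.186), so the clusters of that gene disagreed in sign.

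Ldha, which converts pyruvate to lactate, was the exception in its spread. It read 5.96, 5.93 and 6.11 in WT and 7.18, 5.92, 5.82, 5.44 and 6.03 in KO. KO liver 1 was more than a doubling above the highest WT liver, while KO liver 2, its companion in Ppp1r3c and Igfbp1, was almost level with the lowest. The log2 difference was 0.08 (SE 0.317), and -0.20 without KO array 1.

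**Figure D3:**
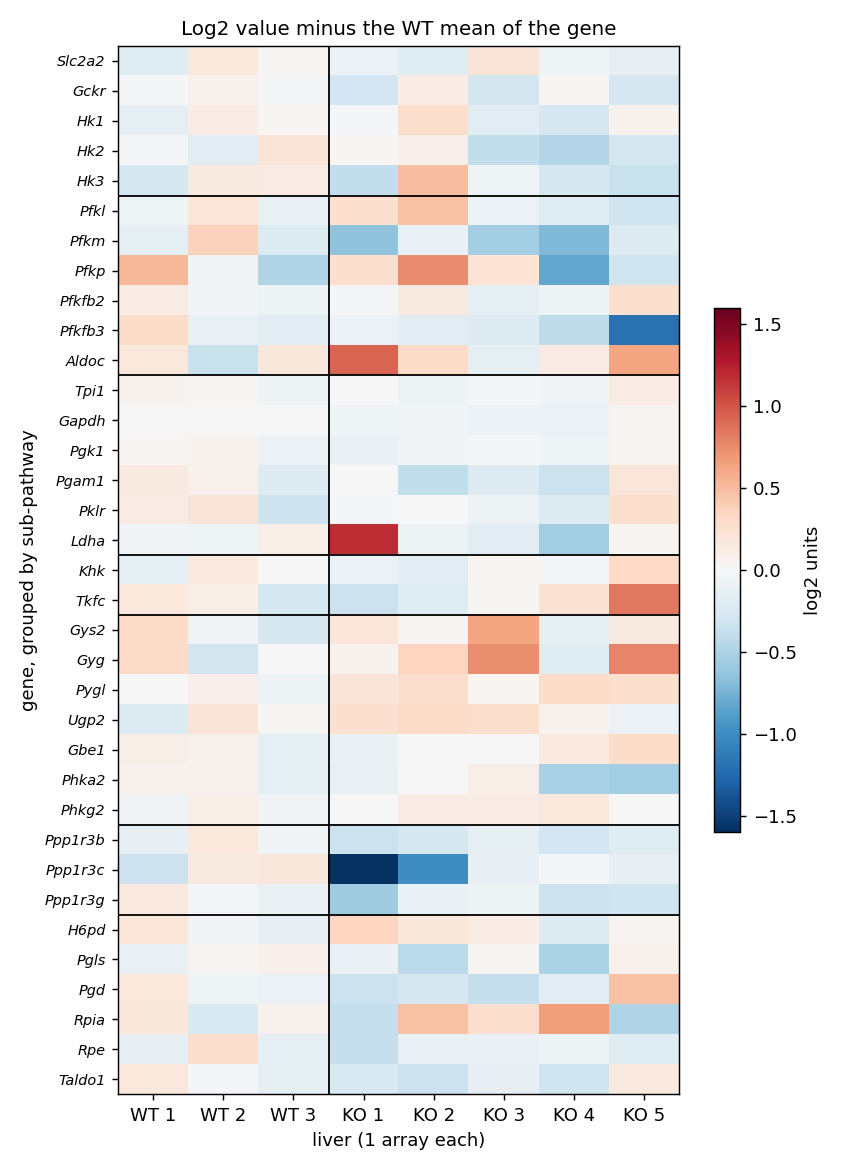
Log2 value of each of the 35 genes (rows, grouped by sub-pathway) minus the gene's WT mean, in each of the 8 livers (columns); red is higher and blue lower than the WT mean. The strongest cells are Ppp1r3c in KO livers 1 and 2 (-1.59 and -0.998), Pfkfb3 in KO liver 5 (-1.19) and Ldha in KO liver 1 (1.18), and the rows of Tpi1, Gapdh and Pgk1 are almost blank.

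Fructose metabolism was represented by Khk, ketohexokinase, and Tkfc, the triokinase that phosphorylates glyceraldehyde. Khk read 9.44, 9.75 and 9.60 in WT and 9.50, 9.43, 9.63, 9.58 and 9.92 in KO, a log2 difference of 0.02 (SE 0.148). Tkfc read 9.12, 9.06 and 8.68 in WT and 8.61, 8.76, 8.97, 9.18 and 9.80 in KO. KO liver 5 was the highest for both genes. The log2 difference of Tkfc was 0.11 (SE 0.249), -0.07 without KO array 5 and 0.37 without KO arrays 1 and 2.

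In the pentose phosphate pathway 4 of 6 genes had lower and 2 higher means, with a median log2 difference of -0.16 and no unadjusted p under 0.05. The median was -0.07 without WT array 1, and likewise without KO arrays 1 and 2. Pgd, phosphogluconate dehydrogenase, a source of NADPH, read 6.93, 6.69 and 6.67 in WT and 6.42, 6.501, 6.39, 6.58 and 7.23 in KO. Of the 5 KO livers, 4 lay below the WT range and KO liver 5 above it. Its log2 difference was -0.14 (SE 0.197) with all arrays, -0.29 without KO array 5 and -0.03 without KO arrays 1 and 2. Pgls, Rpe and Taldo1, which encode the lactonase, the epimerase and transaldolase, had log2 differences of -0.19 (SE 0.166), -0.17 (SE 0.143) and -0.18 (SE 0.153). Rpia, the ribose phosphate isomerase, varied most, from 4.30 to 4.72 in WT and from 4.06 to 5.21 in KO, on both sides of the WT range. H6pd, the dehydrogenase of the endoplasmic reticulum, had a log2 difference of 0.09 (SE 0.153).

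KO liver 5 was the highest of all in Tkfc, Khk, Gbe1 and Pgd, and also in the fatty acid synthase gene Fasn. It was also highest in Gapdh, Tpi1, Pklr, Pgam1, Pfkfb2 and Gyg, whose Pearson's r with Fasn lay between 0.225 (Gyg) and 0.652 (Tpi1). Each of the 35 genes was compared with Fasn across the 8 livers, a choice made after the values were seen. Because Fasn was picked for sharing its highest liver with such genes, small p-values are favoured for them, and the p-values below only describe. Fasn read 8.28, 8.32 and 8.13 in WT and 7.83, 7.86, 7.98, 8.61 and 9.28 in KO, so the order of the livers cuts across genotype. Tkfc followed it most closely, with Pearson's r = 0.943 (exact permutation p = 0.00191) and Spearman's rho = 0.905 (exact permutation p = 0.00456). Gbe1 had r = 0.858 (exact permutation p = 0.00543) and rho = 0.833 (exact permutation p = 0.0154). For Pgd, r was 0.843 (exact permutation p = 0.0142) and rho 0.762 (exact permutation p = 0.0368). After Benjamini-Hochberg adjustment over the 35 relations, none passed 0.05 by these permutation tests, the smallest adjusted p being 0.0668 for r and 0.16 for rho, both of Tkfc, and 6 had an unadjusted p under 0.05 for r. Besides these 3 they were Khk (r = 0.772), Phka2 (r = -0.758) and Pfkl (r = -0.728), and over all 35 genes r was positive for 19 and negative for 16. The share of all clusters related to Fasn at this threshold was not computed. The count of 6 is therefore not shown to be particular to these genes. Without KO liver 5 alone, r was 0.813 for Tkfc, 0.693 for Gbe1 and 0.542 for Pgd. Leaving out KO livers 4 and 5, which lie farthest from the median of Fasn, gave r = 0.741 for Tkfc, 0.483 for Gbe1 and 0.833 for Pgd over 6 livers. The value of Pgd thus depended on which livers were left out. No correlation was computed within the KO group.

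**Figure D4:**
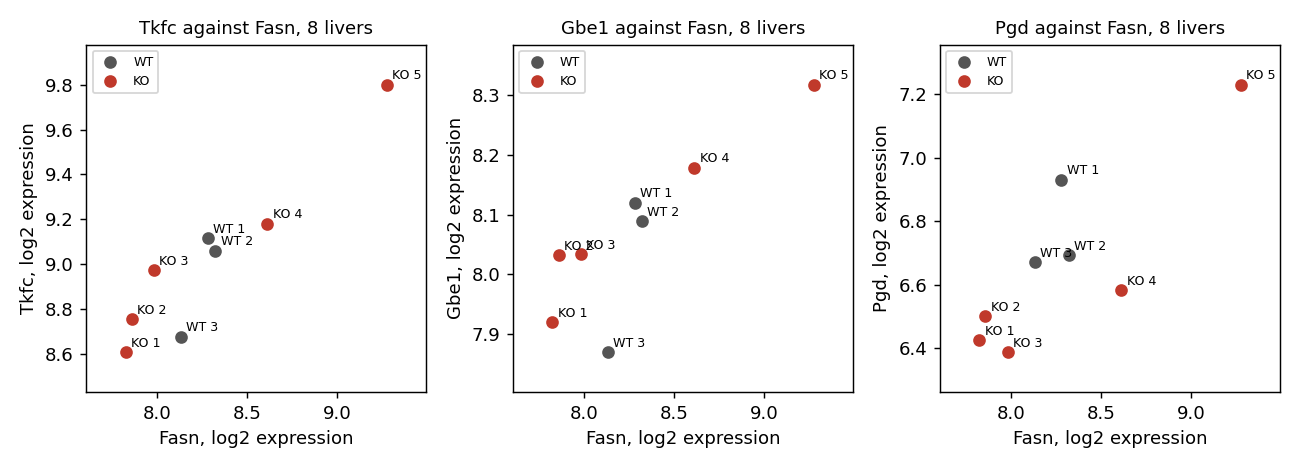
Log2 expression of Tkfc, Gbe1 and Pgd (vertical axes) against Fasn (horizontal axis) in 3 WT (grey) and 5 KO (red) livers, each point labelled with its array. KO liver 5 is at the upper right and KO liver 1 at or near the lower left in each panel, with the WT livers between them in Fasn.

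Other genes of carbohydrate metabolism, from lists of further glycolytic, glycogen and sugar enzymes, pyruvate oxidation, glucose-responsive genes, gluconeogenesis enzymes and hypoxia-linked regulators, gave 76 measured genes of 88 listed. Of these, 41 had higher and 35 lower means, with a median log2 difference of 0.01, and 5 had an unadjusted limma p under 0.05, or 6.58% of the genes against 6.08% of all clusters. All 5 were higher in KO, where 2.75% of all clusters are. None passed after adjustment. In 3 the groups did not overlap, or 3.95% against 4.43% of all clusters in either direction, and 1.99% with KO above WT. In either direction both shares are near those over all clusters. All 5 and all 3 were higher in KO, and against 2.75% and 1.99% the shares are larger. The lists were chosen with earlier results known. Arrdc4, an arrestin-domain gene induced by glucose, read 6.01, 6.05 and 6.04 in WT and 6.73, 6.74, 6.65, 6.46 and 6.22 in KO. All KO livers lay above all WT livers, a log2 difference of 0.53 (SE 0.149, limma adjusted p = 0.795). Slc2a5, the fructose transporter GLUT5, read 4.67, 4.78 and 4.81 in WT and 4.98, 5.05, 5.49, 5.18 and 5.18 in KO, again without overlap (log2 difference 0.42, SE 0.143, limma adjusted p = 0.795). Pgm2, of the phosphoglucomutase family, read 5.70, 5.45 and 5.14 in WT and 6.32, 5.68, 6.05, 6.02 and 6.34 in KO, with KO liver 2 inside the WT range (log2 difference 0.65, SE 0.187, limma adjusted p = 0.795).

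The others were Ddit4, a stress-induced inhibitor of mTORC1 signalling (0.68, SE 0.3), and Ppp1r3a, the muscle form of the glycogen scaffold (0.35, SE 0.135), which did not overlap between the groups but read 2.52 or below on all arrays, under the array medians. Without KO arrays 1 and 2 the count of such genes was 3, as it was without WT array 3 or KO array 1. Mlxipl, which encodes ChREBP, had a log2 difference of -0.11 (SE 0.149), and its sugar-responsive target Txnip one of -0.08 (SE 0.204), which was 0.10 without KO arrays 1 and 2. G6pc, the catalytic unit that releases free glucose, read 9.31 and 9.76 in KO livers 1 and 2 and 7.90 to 8.23 in the other 6 livers, and its log2 difference of 0.67 (SE 0.374) was 0.11 without that pair. Pdk4, which inhibits pyruvate dehydrogenase in fasting, spread over 1.82 log2 units with a difference of 0.19 (SE 0.405).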

How the data were processed

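Liver RNA from 5 Abhd15 KO and 3 WT mice was measured, 1 array per liver, with groups and replicate numbers taken from the sample titles. No source says the arrays come from independent litters, and p-values measure only the variation among these samples. The authors deposited log2 expression values for 41345 transcript clusters. RMA and oligo are named in the submitters' processing notes, and Expression Console in the design text. The sources used here give no versions, settings, filters or genome build. In general RMA includes quantile normalization, and it compresses the differences of dim clusters.

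Values were used as deposited. Of the clusters, 23521 carry 1 symbol in the platform's annotation and 1814 several. KO minus WT was fitted over the 23521 with limma 3.58.1 (lmFit, eBayes without trend, no covariates, 6 residual degrees of freedom) in R 4.3.3, two-sided, with Benjamini-Hochberg adjustment and a threshold of 0.05. The fit was tested on simulated data. Errors are the SD over arrays or limma's standard error (SE). Single values were also compared by exact permutation over 56 splits. Promoters were searched with Python 3.11.15.

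The members and lists were chosen with earlier results of these data known. Text values are given for members with an unadjusted p under 0.05 or no overlap, for the regulated steps, for the most variable member of each sub-pathway, and for pathway genes by a like rule. Other genes named were chosen after their values were seen. No scan date or slide was given, so no batch was tested. Alternatives were 17: the replicate number as a block, each array left out, KO arrays 1 and 2 left out, a minimum mean of 5, all clusters, median centring, renewed quantile normalization, trend with robust settings, array weights, and the mean of a gene's clusters. Other pathway genes without KO arrays 1 and 2 were added after seeing the data.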

Additional observations from a re-analysis of the deposited data

Results flagged for a closer look

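Among the 5 KO arrays, 2 of the 35 genes had an array far from the others by Dixon's test at the 95% level, 5.71% of the genes, where chance gives about 1 in 20. The WT group, with 3 arrays, was not tested. In Pfkfb3, KO array 5 read 3.73, against 4.52 for the next lowest and 4.82 for the highest KO array. In Pgd, KO array 5 read 7.23, against 6.58 for the next highest and 6.39 for the lowest. Both values belong to the same liver, which was also highest in Fasn. No cause was tested.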

How the results depend on the processing

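The 17 alternatives gave 554 values for the 35 genes. In 553 the log2 difference moved by less than the SD between replicates, the exception being Pgam1, at 0.08 when its clusters were averaged. Fitting all clusters, setting a minimum mean, and trend with robust settings cannot change a gene's log2 difference. Their values are therefore unmoved by construction. The count of 553 was in part fixed in advance and is not a measure of robustness. None of the 35 genes passed an adjusted p of 0.05 in any of the alternatives. The sign of the mean difference turned in at least 1 alternative for 15 genes, mostly those near 0, and kept for 20, among them Ppp1r3b (-0.34 to -0.16), Ppp1r3c (-0.91 to -0.10), Ppp1r3g (-0.34 to -0.20), Pfkm (-0.55 to -0.26) and Pygl (0.17 to 0.26).

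Clusters past an adjusted p of 0.05 with limma, 0 in the fit reported (1429 at an unadjusted p under 0.05), numbered 3 over all clusters, 1 with a minimum mean of 5, 1 with the replicate block and 3 with trend and robust settings, and 0 without any single array. Members at an unadjusted p under 0.05, 1 in the report, numbered 0 over all clusters, with median centring or with quantile normalization, and 2 with trend and robust settings (Ppp1r3b and Pygl) or without KO arrays 1 and 2 (Hk2 and Pfkm). The count was 1 with a minimum mean of 5, but the gene was Ppp1r3b (Pfkm lies below that mean). Leaving out single arrays gave 0 to 1, and without KO array 3 the gene was Aldoc, higher in KO. With the replicate block there were 2, Pfkm and Ppp1r3c, and Hk3 turned sign, but the shared numbers do not pair the samples: deviations of same-numbered arrays correlated at -0.048, 0.016 and 0.021. For these counts by unadjusted p, the share of all clusters is given only for the fit reported. Members without overlap, 1 in the report, numbered 0 with median centring, 3 without KO arrays 1 and 2 (where 11.6% of all clusters do not overlap), and 1 to 3 without single arrays. The share of all clusters without overlap also rose, from 4.43% in the report to 6.38% without KO array 1 and 6.76% without KO array 2. Those settings gave 2 members and 1 member. For the single array whose removal gave 3 members, the share of all clusters is not given here, so that count has no background. Other pathway genes at an unadjusted p under 0.05, 5 in the report, numbered 3 without KO arrays 1 and 2 and 3 to 7 without single arrays. The causes were not tested. Signals near the array medians, as for Ppp1r3g and Hk3, are not shown to be above background.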
